A study of Mus musculus with 8 samples.

Results

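Collagen genes of the mouse distal ileum were described in 4 Cftr null (KO) mice and their 4 wild-type (WT) littermates. The members were all rows of the expression table with a symbol of the form Col, number, a, number, which gave 44 of 41128 rows. Of these, 18 reached a value of 1 or more in at least 3 of the 8 libraries and are described gene by gene, and the other 26 are given by range. Values are the authors' normalised expression values, of an RPKM kind as far as the numbers show, and are called RPKM-like values here because the table names no unit.

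Each library was poly(A) RNA from a whole section of terminal ileum taken at most 6 cm from the ileocecal valve, so it holds epithelium, lamina propria, muscle, vessels and nerves together. The KO mice carried the Cftrtm1Cam null allele, congenic on FVB, and each was paired with a WT (Cftr N/N) littermate of the same sex. Untreated KO and WT mice formed couples 1, 2 and 3, of which couples 1 and 3 were female and couple 2 was male. A further couple, labelled female, drank ciprofloxacin at 0.3 g/L and metronidazole at 0.5 g/L, and is called the antibiotic couple. All 8 mice, KO and WT, were kept on a low-fibre diet with an osmotic laxative that was stopped more than 4 days before sampling, and their ages were not used here. Cftr itself had 3.74, 2.65 and 3.17 in untreated KO and 4.94 in antibiotic KO ileum, against 12.4, 9.94 and 10.1 in untreated WT and 13.8 in antibiotic WT ileum. The residual value in KO libraries is a transcript level and says nothing of protein.

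Collagens are secreted matrix proteins built from chains that wind into a helix. Fibrillar collagens form the cables of the submucosa and muscle coats, basement membrane collagens form the sheet under epithelium, endothelium and muscle, and collagen VI forms beaded filaments between cells and matrix. In the gut wall they are made mainly by fibroblasts, smooth muscle cells and vascular cells, with glia and some epithelial cells adding to the basement membrane and transmembrane types.

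The stretches of 250 bases before the RefSeq start are shown for Col13a1, Col23a1 and Col3a1 (RefSeq, build GRCm38.p6, 5′ to 3′ on the gene's strand). Col3a1 is the fibrillar collagen with the highest level. Col13a1 and Col23a1 passed as lower in KO with the couple in the fit. Col13a1 reached the minimum of 1 in WT libraries only, so a lower KO value was built into its choice. The stretches cover chr10:61979109-61979358 on the minus strand, chr11:51289670-51289919 on the plus strand and chr1:45311288-45311537 on the plus strand. No annotated exon overlaps any of them. Capitals mark the motifs searched, which were TATAAA (or TTTATA), the GC box GGGCGG (or CCGCCC) and CCAAT (or ATTGG), on both strands.
Col13a1: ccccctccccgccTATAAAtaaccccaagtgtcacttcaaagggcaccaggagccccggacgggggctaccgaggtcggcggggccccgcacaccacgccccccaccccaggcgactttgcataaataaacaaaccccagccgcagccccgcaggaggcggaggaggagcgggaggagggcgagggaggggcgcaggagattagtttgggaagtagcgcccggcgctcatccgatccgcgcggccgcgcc
Col23a1: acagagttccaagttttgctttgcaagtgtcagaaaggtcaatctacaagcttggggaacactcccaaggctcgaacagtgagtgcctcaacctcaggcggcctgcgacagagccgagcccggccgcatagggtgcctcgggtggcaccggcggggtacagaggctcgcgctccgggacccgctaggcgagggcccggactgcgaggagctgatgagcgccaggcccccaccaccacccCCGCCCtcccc
Col3a1: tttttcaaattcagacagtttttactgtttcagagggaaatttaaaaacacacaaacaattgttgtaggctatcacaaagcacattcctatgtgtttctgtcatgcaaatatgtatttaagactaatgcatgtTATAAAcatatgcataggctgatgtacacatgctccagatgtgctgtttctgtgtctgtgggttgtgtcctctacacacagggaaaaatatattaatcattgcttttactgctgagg
TATAAA stands in the stretch of Col13a1 and in that of Col3a1, and Col23a1 has CCGCCC close to its start. Of the 18 described collagens 14 were in the promoter table, with 16 starts. Among these 16 starts, CCAAT was found in 6, the GC box in 9 and TATAAA in 2 (6, 8 and 2 of the 14 genes). Over all 32851 promoter stretches of the same length, the shares holding them were 33.8% for CCAAT, 32.7% for the GC box and 12.4% for TATAAA. These are matches of letters only.

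In the untreated comparison, most collagens had lower values in KO ileum in couples 2 and 3 and about equal values in couple 1. They were tested with limma on log2(value + 1) among 11911 genes, and an adjusted p (Benjamini-Hochberg) under 0.05 counted as a pass. On this scale a fold change of a low gene is understated. None of the 18 collagens passed as lower or as higher, where 0.965% of all genes tested passed as lower and 1.07% as higher. At an unadjusted p under 0.05 there were 7 of the 18, and 1886 of all 11911 genes tested (15.8%). With the littermate couple as a block in the fit, 3 collagens passed as lower (Col14a1, Col23a1 and Col13a1) and 0 as higher, where 9.52% of all genes passed as lower and 8.07% as higher. Col13a1 reached the minimum in WT libraries only, so a lower KO value was built into its choice and its call is given as a description only. Without it, 2 of 17 passed as lower with the block, and the median log2 change stayed at -0.70. The median log2 change of the 18 was -0.70, and that of all genes tested was -0.02. In bulk tissue, fewer cells of a type and less RNA per cell cannot be told apart.

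**Figure D1:**
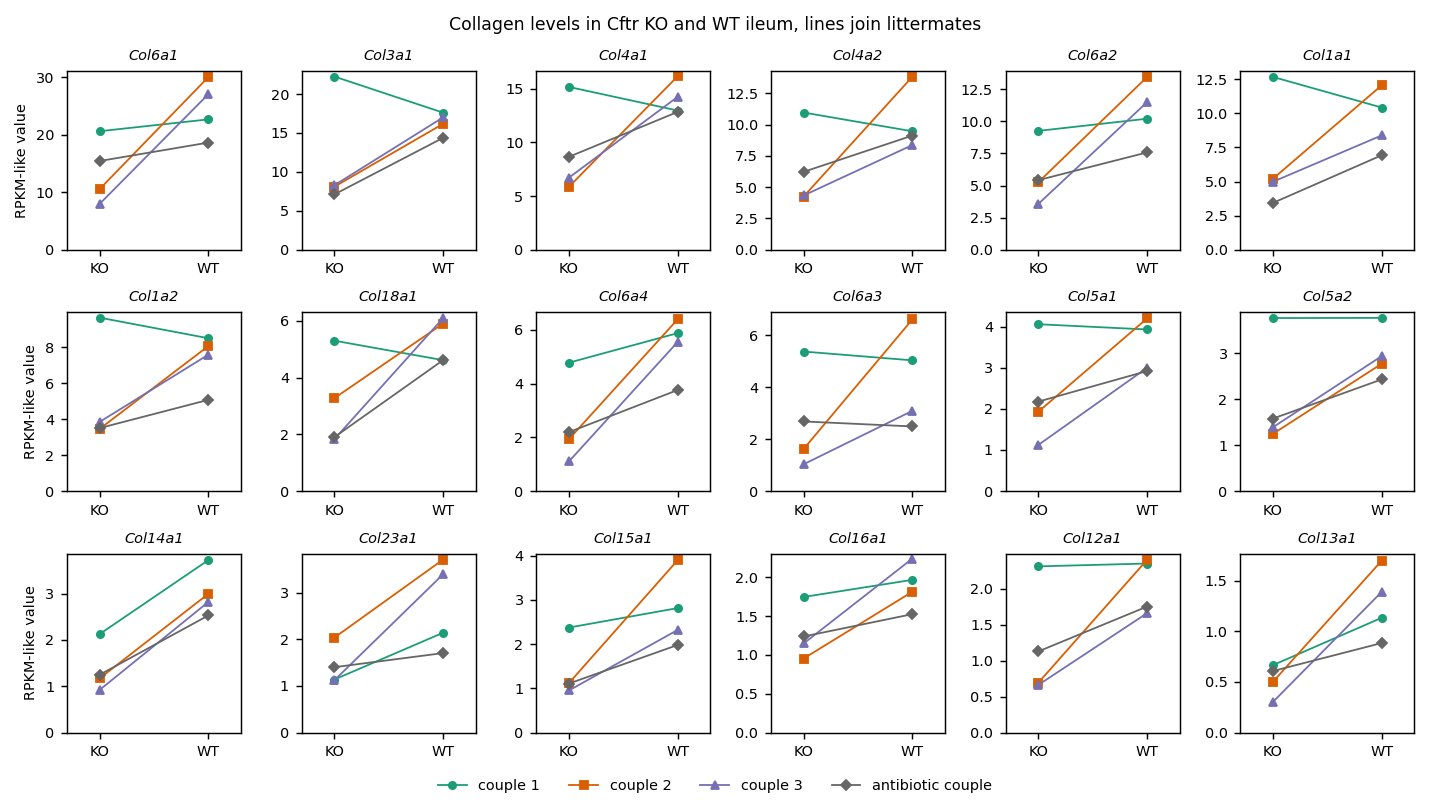
RPKM-like value (linear axis from 0) of each of the 18 described collagens in KO and WT ileum, with a line joining the littermates of each couple. In couples 2 and 3 every line lies lower at KO, while in couple 1 the line is near level for many genes (Col5a2 had 3.77 in KO and 3.77 in WT).

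Couple 1 stood apart from the other couples. Within couple 1 KO was lower than WT for 10 of the 18 collagens and higher for 8, with a median log2 difference of -0.01. In couple 2 all 18 were lower in KO, with a median of -1.02 and a range of -1.54 (Col6a3) to -0.53 (Col16a1). In couple 3 all 18 were also lower, with a median of -0.94 and a range of -1.65 (Col6a1) to -0.59 (Col16a1). Among all genes tested, 52.4%, 49.9% and 52.8% were lower in KO in couples 1, 2 and 3. These differences are on the log2(value + 1) scale, which understates the gap of low genes. On it, 0, 10 and 6 of the 18 were at least 1 log2 unit below the WT littermate in couples 1, 2 and 3. The shares of all genes were 2.42%, 2.91% and 2.39%. The KO mouse of couple 1 had the highest of the 3 untreated KO values for 17 of the 18 collagens, with Col23a1 the exception, and for 33.0% of all genes tested. All 18 lay below all 3 WT values in the KO mouse of couple 2, as they did in that of couple 3, against 26.03% and 33.5% of genes tested. All 3 untreated KO values lay below all 3 WT values for 7 of the 18 (12.1% of all genes), and above them for 0 of the 18 (10.3%). Without Col13a1, KO was lower for 17 of 17 in couple 2 and in couple 3, and the groups did not overlap for 6 of 17.

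**Figure D2:**
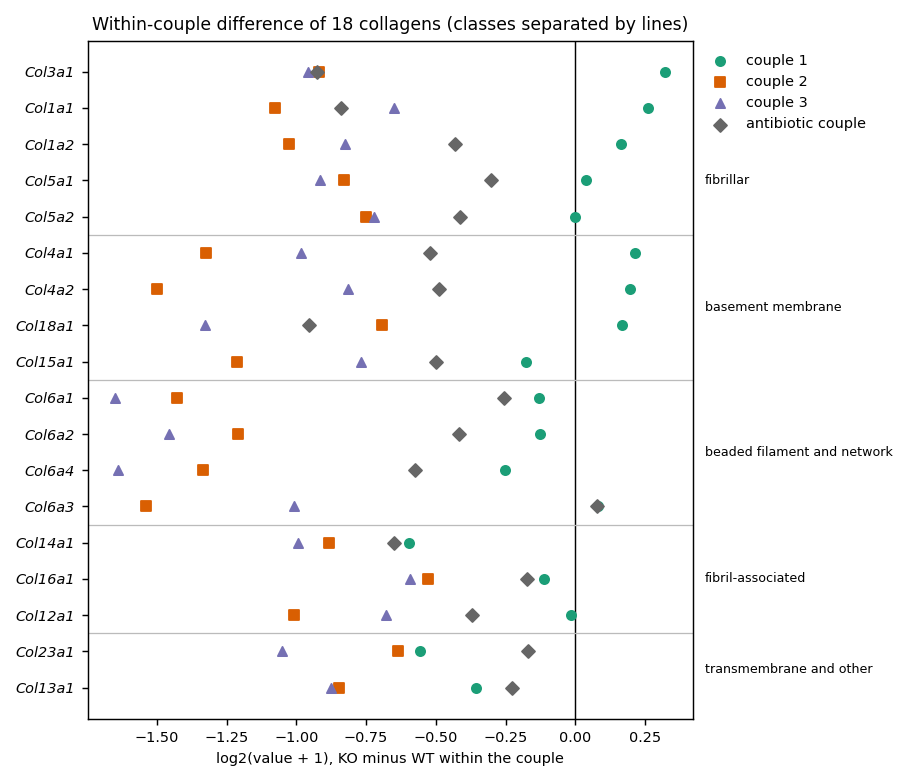
Difference of log2(value + 1), KO minus WT, within each littermate couple for the 18 described collagens, grouped by class. Points of couples 2 and 3 lie left of 0 for every gene, those of couple 1 spread on both sides from -0.60 (Col14a1) to 0.32 (Col3a1), and those of the antibiotic couple lie left of 0 except for Col6a3 (0.08).

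The sum over all 44 collagens gives the same picture on a linear scale. It was 140.9, 63.3 and 51.7 in the KO mice of couples 1, 2 and 3, against 139.1, 160.3 and 130.4 in their WT littermates. Couple 1 thus had a KO over WT ratio of 1.01, whereas couples 2 and 3 had 0.395 and 0.397. The 3 WT sums lay closer together than the 3 KO sums. The 18 described genes made up 92.9% to 99.1% of the sum in every library.

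**Figure D3:**
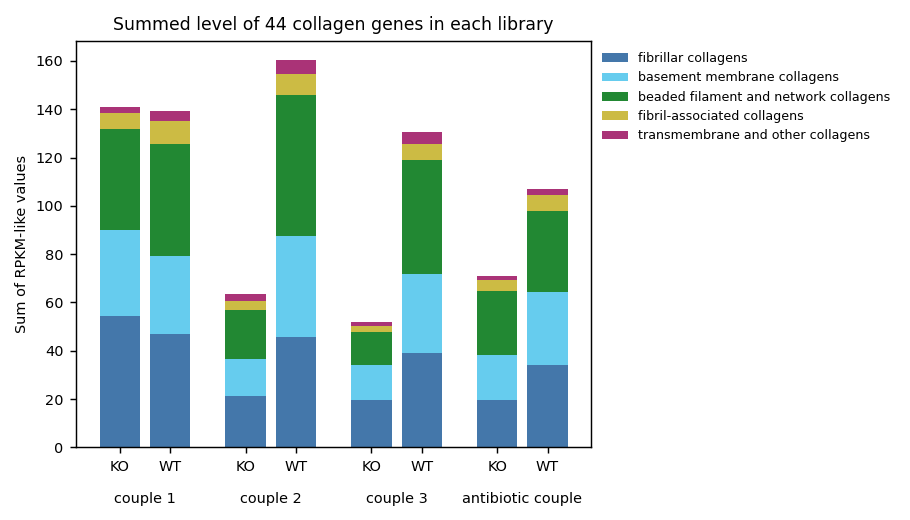
Sum of RPKM-like values of the 44 collagen genes in each library, stacked by class, with the KO bar left of its WT littermate. The KO bar of couple 1 (140.9) is as high as its WT bar (139.1), while the KO bars of couples 2 and 3 (63.3 and 51.7) stand well below theirs (160.3 and 130.4).

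Fibrillar collagens had 5 described members of 11, and 0 of the 5 passed with or without the block. Their median log2 difference was 0.16, -0.92 and -0.83 in couples 1, 2 and 3. Col3a1, the chain of collagen III, which runs with collagen I in the gut submucosa and in vessel walls, was at 22.3, 8.08 and 8.27 in KO ileum of couples 1, 2 and 3, against 17.6, 16.2 and 17.0 in WT ileum. The WT values lay within a narrow band, and the KO values lay on both sides of it. Col3a1 averaged 12.9 ± 8.13 in KO and 16.9 ± 0.722 in WT (SD, n = 3 each), or -0.52 on the log2 scale (SE 0.35, limma adjusted p = 0.539). Col1a1 and Col1a2, whose products join in collagen I, the main load-bearing fibril, followed the same order of couples. Col1a1 was at 12.7, 5.20 and 4.98 in KO, against 10.4, 12.1 and 8.39 in WT. Col1a2 was at 9.66, 3.46 and 3.85 in KO, against 8.51, 8.08 and 7.60 in WT. For both chains the KO mouse of couple 1 was above every untreated WT mouse, and the other KO mice were below all of them. The log2 changes were -0.49 (SE 0.33, limma adjusted p = 0.531) for Col1a1 and -0.56 (SE 0.32, adjusted p = 0.451) for Col1a2.

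The ratio of Col1a1 to Col1a2 was between 0.978 and 1.503 in the 8 libraries, the lowest being that of antibiotic KO ileum, against 1.36 in its WT littermate. Collagen V, which joins collagen I in mixed fibrils and helps to start them, was measured through Col5a1 and Col5a2. Col5a1 had 4.06, 1.93 and 1.12 in KO, against 3.93, 4.20 and 3.00 in WT. Col5a2 had 3.77, 1.24 and 1.39 in KO, against 3.77, 2.77 and 2.94 in WT. The KO mouse of couple 1 lay inside the WT range for Col5a1 and at the top of it for Col5a2. In GRCm38, Col3a1 and Col5a2 are neighbours on chromosome 1 that end towards each other with 24614 bases between them.

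Basement membrane collagens had 4 described members of 9, and 0 of the 4 passed with or without the block. Their median log2 difference was 0.18, -1.27 and -0.90 in couples 1, 2 and 3. Col4a1 and Col4a2 encode the chains of the common collagen IV network. Col4a1 was at 15.2, 5.86 and 6.71 in KO ileum, against 13.0, 16.2 and 14.3 in WT ileum. Col4a2 was at 10.96, 4.24 and 4.33 in KO ileum, against 9.46, 13.8 and 8.36 in WT ileum. For both chains the KO mouse of couple 1 lay within the WT range and the KO mice of couples 2 and 3 lay below it. The log2 changes were -0.70 (SE 0.32, limma adjusted p = 0.344) for Col4a1 and -0.71 (SE 0.35, adjusted p = 0.380) for Col4a2. The genes stand head to head on chromosome 8, with annotated bodies that overlap by 22 bases, and the Col4a1 to Col4a2 ratio was 1.17 to 1.70 over the 8 libraries.

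Col18a1, a heparan sulfate-bearing basement membrane collagen whose end fragment is endostatin, was at 5.30, 3.27 and 1.82 in KO, against 4.61, 5.90 and 6.09 in WT. Its log2 change was -0.62 (SE 0.29, limma adjusted p = 0.352). Col15a1, its close relative at the outer face of vascular and muscle basement membranes, was at 2.37, 1.12 and 0.951 in KO, against 2.81, 3.90 and 2.32 in WT. The KO mouse of couple 1 lay inside the WT range for both genes, so the groups overlapped.

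Beaded filament and network collagens had 4 described members of 9, all of them chains of collagen VI. On the log2(value + 1) scale, which understates low genes, they had the most negative of the class medians in couples 2 and 3. Their median log2 difference was -0.13, -1.38 and -1.55 in couples 1, 2 and 3, and 0 of the 4 passed with or without the block. Col6a1, the most abundant collagen in the WT libraries on this scale, was at 20.6, 10.5 and 7.96 in KO ileum, against 22.7, 30.1 and 27.1 in WT ileum. It averaged 13.0 ± 6.69 in KO and 26.6 ± 3.72 in WT (SD, n = 3 each). On the log2 scale this was -1.07 with an SE of 0.32, and limma gave an adjusted p of 0.157, or 0.079 with the couple block. Col6a2, the second chain of the same monomer, was at 9.26, 5.25 and 3.56 in KO, against 10.2, 13.5 and 11.5 in WT. Its log2 change was -0.93 (SE 0.29, adjusted p = 0.176 by limma, with the couple block 0.079). The KO and WT values of Col6a1 did not overlap, nor did those of Col6a2.

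Col6a4, a chain present in mice whose human counterpart is broken, was at 4.78, 1.93 and 1.10 in KO, against 5.88, 6.39 and 5.55 in WT. Its change of -1.08 on the log2(value + 1) scale (SE 0.34, limma adjusted p = 0.181, with the couple block 0.0639) was the largest of the 18, again without overlap. By the KO over WT ratio of mean values, Col13a1 (0.348) was lower than Col6a4 (0.438). Col6a3, the longest common partner chain, was at 5.37, 1.62 and 1.03 in KO, against 5.03, 6.61 and 3.09 in WT, and the groups overlapped through couple 1. Its log2 change was -0.82 (SE 0.43, limma adjusted p = 0.413). The ratio of Col6a1 to Col6a2 stayed between 2.01 and 2.85 in the 8 libraries, while that of Col6a1 to Col6a3 ranged from 3.84 to 8.78. Without the KO mouse of couple 1, Col6a1 (limma adjusted p = 0.0453) and Col6a4 (0.0366) passed as lower, among 28 of all 11911 genes tested. With the block and without couple 1, Col3a1 (limma adjusted p = 0.0482), Col6a1 (0.0373), Col6a2 (0.0427) and Col6a4 (0.0452) passed, while Col14a1, Col23a1 and Col13a1 did not. In that fit 94 of all 11911 genes tested passed as lower.

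Among fibril-associated collagens, which sit on the surface of fibrils and link them to other matrix, 3 of 9 were described. Col14a1 was at 2.13, 1.17 and 0.920 in KO ileum, against 3.73, 3.00 and 2.82 in WT ileum. Every KO value was below every WT value, and this gene was lower in all 4 couples. It averaged 1.40 ± 0.636 in KO and 3.18 ± 0.479 in WT (SD, n = 3 each). This was -0.82 on the log2 scale (SE 0.22), with an adjusted p of 0.120 by limma, and of 0.0218 with the couple block. Couple 1 showed the same direction for this gene, with a log2 difference of -0.60. Col12a1, a relative of Col14a1 found in dense connective tissue, was at 2.31, 0.691 and 0.661 in KO, against 2.35, 2.40 and 1.66 in WT. Col16a1, which is found near fibrils and at cell surfaces, was at 1.75, 0.954 and 1.15 in KO, against 1.97, 1.82 and 2.24 in WT. Its groups did not overlap by a narrow margin, and neither Col12a1 nor Col16a1 passed in either fit.

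Transmembrane collagens are anchored in the cell membrane and can be shed from it. Both described members, of 6 in this class, passed as lower only with the couple block, where 9.52% of all genes tested did. For Col13a1 a lower KO value was built into its choice, so only the call of Col23a1 counts. Col23a1 was at 1.13, 2.03 and 1.12 in KO ileum, against 2.14, 3.71 and 3.39 in WT ileum. It averaged 1.43 ± 0.523 in KO and 3.08 ± 0.829 in WT (SD, n = 3 each). The log2 change was -0.75 (SE 0.23, limma adjusted p = 0.167, with the couple block 0.0318). Col13a1, known from cell-matrix contacts and the neuromuscular junction, was at 0.666, 0.501 and 0.302 in KO, against 1.13, 1.70 and 1.39 in WT. Its log2 change was -0.69 (SE 0.19, limma adjusted p = 0.127, with the couple block 0.0451). Neither gene overlapped between the groups. These values of Col13a1 are a description, as it entered through 3 WT libraries only. Just outside the minimum, with 2 libraries at 1 or more, all of them WT, were Col4a5, Col6a5, Col20a1 and Col27a1.

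Leaving out any 1 of the 3 couples changed which collagens passed with the block: 4 did without couple 1, and 0 did without couple 2 or without couple 3. Of all 11911 genes tested, 94, 231 and 290 passed as lower without couples 1, 2 and 3, against 1134 with all 3 couples. Col14a1, Col23a1 and Col13a1 passed only with all 3 couples in the block fit, though each was lower in KO in every couple. Fits on 2 couples have fewer residual degrees of freedom, and otherwise the cause of the lost calls was not tested. The call of Col13a1 is a description only, as it entered through WT libraries.

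The 26 collagens below the minimum stayed at 1.97 or less in every library, the highest being Col6a5 in the WT mouse of couple 1, and 22 of them never reached 1. Col10a1, the collagen of growth plate cartilage, was listed at 0 in all 8 libraries. In couple 3 both libraries listed 25 of the 26 at 0, and in the antibiotic couple both listed 16 at 0. A listed 0 is not a measured absence. In couples 1 and 2, 23 of the 26 were above 0 in all 4 libraries. KO was lower than WT for 19 of these in couple 1 and for 17 in couple 2, with 15 (65.2%) lower in both. Among all 6926 rows below the minimum and above 0 in the same libraries, KO was lower for 65.1% in couple 1 and 42.3% in couple 2, with 28.8% lower in both. In the antibiotic couple 10 of the 26 were above 0 in both libraries and 9 of them were lower in KO, against 57.4% of 1806 such rows.

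Under antibiotics 17 of the 18 collagens were lower in the KO mouse than in its WT littermate, by a median of -0.43 on the log2 scale, in 1 couple with no replicate. Over all genes tested, 56.2% were lower in KO in this couple. Col3a1 was at 7.09 in KO and 14.4 in WT, Col1a1 at 3.43 in KO and 6.93 in WT, and Col1a2 at 3.51 in KO and 5.08 in WT. The antibiotic couple is on a scale of its own, so these levels are compared only between its KO and WT mice. Col4a1 was at 8.66 in KO and 12.8 in WT, and Col4a2 at 6.22 in KO and 9.12 in WT. Col18a1 had the widest gap of the 18, at 1.90 in KO and 4.61 in WT, a log2 difference of -0.95. On the log2(value + 1) scale no collagen was 1 log2 unit or more below its WT littermate, where 1.7% of all genes were. Without the added 1, Col18a1 (KO over WT ratio 0.4114), Col14a1 (0.4932), Col3a1 (0.4935) and Col1a1 (0.4949) were more than 1 log2 unit below.

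Each collagen VI chain was closer to its WT littermate in the antibiotic couple than in couples 2 and 3, though Col6a1, Col6a2 and Col6a4 were farther from it than in couple 1. Col6a1 was at 15.4 in KO and 18.7 in WT, Col6a2 at 5.42 in KO and 7.58 in WT, and Col6a4 at 2.19 in KO and 3.76 in WT. Col6a3, at 2.68 in KO and 2.49 in WT, was the 1 collagen that was not lower in KO. Col14a1 was at 1.25 in KO and 2.53 in WT, Col23a1 at 1.40 in KO and 1.70 in WT, and Col13a1 at 0.608 in KO and 0.884 in WT. The summed collagen value was 71.1 in KO and 107.1 in WT, a ratio of 0.664.

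KO was below WT in each untreated couple for 10 of the 18 (32.4% of all genes tested) and above it for 0 (27.8%). KO was below WT in all 4 couples for 10 of the 18 (20.8% of all genes tested) and above it in all 4 for 0 (14.2%). In couples 2, 3 and the antibiotic couple KO was lower for 17 of the 18 (24.4% of all genes) and higher for 0 (17.3%). Without Col13a1 these counts were 9 of 17 in the untreated couples, 9 of 17 in all 4 couples and 16 of 17 in the last set. The difference between the KO minus WT effects of the antibiotic couple and of the untreated couples was tested by limma as an interaction, in which the lone antibiotic libraries are assumed to vary like the untreated ones. None of the 18 passed in either direction (adjusted p = 0.999 for each by limma; 0 at an unadjusted p under 0.05), where 0.369% of all genes passed as higher and 0.252% as lower. With the couple block 0 of the 18 passed too, where 1.28% of all genes passed as higher and 0.865% as lower. The shares over all genes include genes with faulty values in the WT antibiotic column, of which 0 are described collagens, so they are no sound background. The estimates without the block ran from -0.41 (Col3a1) to 0.90 (Col6a3).

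The classes' shares of the summed collagen value differed between KO and WT libraries as well. Fibrillar genes held 38.7%, 33.8% and 37.9% of it in KO libraries of couples 1, 2 and 3, against 33.7%, 28.6% and 29.9% in WT libraries. Beaded filament and network genes held 29.8%, 32.1% and 26.4% in KO, against 33.6%, 36.5% and 36.2% in WT. In each untreated couple the fibrillar share was thus higher, and the collagen VI-bearing share lower, in KO. In the antibiotic couple both went the other way, with a fibrillar share of 27.7% in KO and 31.9% in WT and a beaded filament and network share of 37.5% in KO and 31.6% in WT. These shares depend on one another and were not tested.

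Genes that make and secrete collagen were tested in 16 cases of 22 listed. None passed without the block, and their median log2 change was -0.09. With the block 1 was lower and 0 higher, where 9.52% of all genes tested passed as lower and 8.07% as higher. The 1 that passed was Plod1, a lysyl hydroxylase that modifies collagen chains in the endoplasmic reticulum. It was at 1.60, 2.12 and 1.68 in KO ileum, against 2.88, 4.79 and 3.74 in WT ileum, or -0.77 on the log2 scale (SE 0.19, limma adjusted p = 0.103, with the couple block 0.0204).

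Propeptide processing and crosslinking genes gave 4 tested of 13. Without the block 1 of the 4 was lower, where 0.965% of all genes tested passed as lower. With the block 2 were lower, where 9.52% of all genes did. Bmp1 was the 1 companion gene that passed without the block. Bmp1 encodes the proteinase that removes the C-terminal propeptide of fibrillar procollagens. It was at 3.06, 2.89 and 2.27 in KO ileum, against 8.74, 17.4 and 12.5 in WT ileum. The groups were far apart, with 2.74 ± 0.417 in KO and 12.9 ± 4.32 in WT (SD, n = 3 each). The log2 change was -1.85 (SE 0.24, limma adjusted p = 0.0153, with the couple block 0.0159). It included couple 1, where the log2 difference was -1.26. In the antibiotic couple Bmp1 was at 8.25 in KO and 10.3 in WT, and the interaction estimate was 1.57 (SE 0.48, limma adjusted p = 0.477). The call was lost without the KO mouse of couple 3 (limma adjusted p = 0.0504), without the WT mouse of couple 3 (0.0638) and with no filter on low values (0.147), and also without any 1 couple in the fit without the block (0.0950 to 0.240). Pcolce, which enhances the action of that proteinase, was at 2.30, 2.23 and 2.17 in KO, against 3.14, 3.89 and 3.50 in WT, and was lower with the block (log2 change -0.48, SE 0.14, limma adjusted p = 0.155, with the couple block 0.0392). Lox, the lysyl oxidase that starts crosslinks, stayed at or below 0.339 in every library and was not tested.

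Breakdown genes and their inhibitors gave 8 tested of 16, with 0 passing without the block. With it Pepd alone was lower, where 9.52% of all genes tested passed as lower. Pepd encodes prolidase, which splits the proline-containing dipeptides left from collagen and diet. It was at 100.8, 120.7 and 201.7 in KO, against 172.9, 172.9 and 305.0 in WT (log2 change -0.63, SE 0.35, limma adjusted p = 0.436, with the couple block 0.0221). Of 6 collagen receptors tested, 0 passed in either fit. Itgb1, the shared integrin beta chain, had a log2 change of -0.05 and Ddr1, a receptor kinase for collagen, of -0.35.

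Matrix proteins that bind fibrils gave 13 tested of 14, with 0 passing without the block. With it 4 were lower, where 9.52% of all genes tested passed as lower. The 4 were Tnxb (tenascin X; log2 change -0.90, limma adjusted p with the couple block 0.0286), Ogn (osteoglycin; -0.71, 0.0461), Postn (periostin; -0.71, 0.0339) and Prelp (a leucine-rich proteoglycan; -0.69, 0.0472). Postn had 6.50, 2.64 and 2.38 in KO, against 8.96, 5.06 and 5.65 in WT. The 4 were chosen by their untreated values, so their lower KO values in couples 1, 2 and 3 add no support. In the antibiotic couple, which that fit did not use, the 4 were also lower in KO, as were 56.2% of all genes tested.

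Other basement membrane proteins gave 14 tested of 17, with 0 passing without the block. With it 0 were higher and 3 lower, where 9.52% of all genes tested passed as lower. The 3 lower ones were Nid2 (nidogen, which links laminin to collagen IV; log2 change -0.89, limma adjusted p with the couple block 0.0489), Lamb2 (a laminin chain; -0.81, 0.0471) and Agrn (agrin, a heparan sulfate proteoglycan; -0.42, 0.0412). All 10 companion genes that passed with the block alone (Plod1, Pcolce, Pepd, Tnxb, Ogn, Postn, Prelp, Nid2, Lamb2 and Agrn) lost the call when any 1 couple was left out of that fit, with limma adjusted p-values of 0.0517 to 0.152. In TGF-beta signalling, a pathway known to raise collagen transcription, 0 of 15 tested genes passed in either fit, with a median log2 change of -0.05. Smad4 had a log2 change of 0.27 and Tgfbr2 of -0.02.

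**Figure D4:**
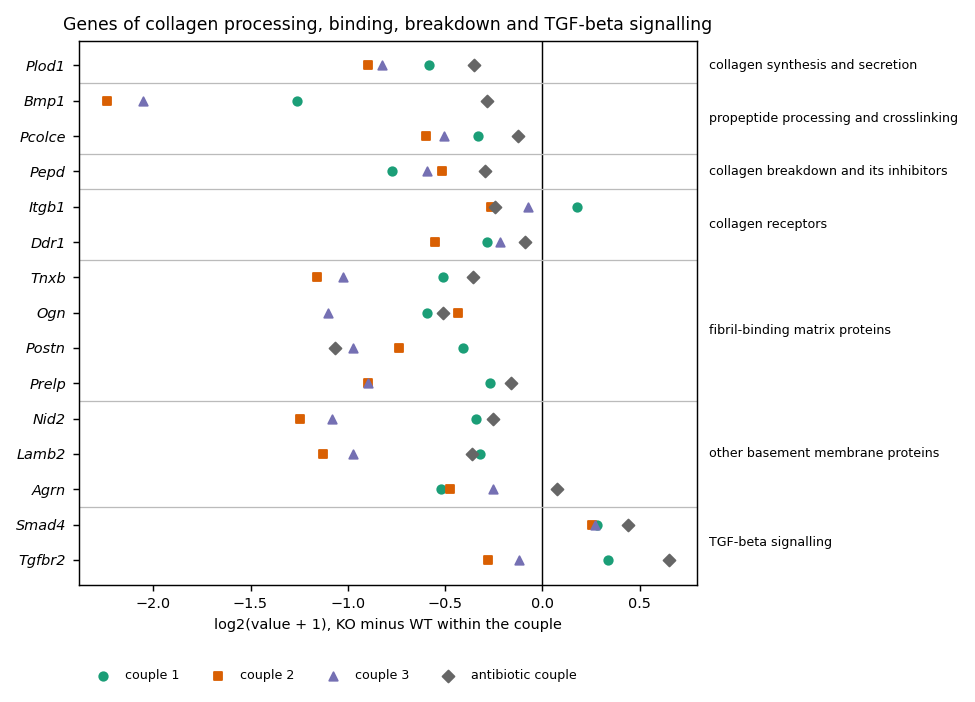
Difference of log2(value + 1), KO minus WT, within each couple for the named companion genes, grouped by role. Bmp1 lies farthest left in the untreated couples (-1.26, -2.24 and -2.05) and near -0.28 in the antibiotic couple, while Smad4 lies right of 0 in all 4 couples.

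Markers of cells in the ileal wall differed between the couples too, and not in 1 common order. The KO over WT ratio of summed values of the 10 fibroblast markers was 0.988, 0.676 and 0.828 in couples 1, 2 and 3 and 1.08 in the antibiotic couple. Untreated sums ran from 147.5 to 205.3 in KO and from 207.9 to 238.7 in WT, with Pi16 and Mfap5 at 0 in some library. The same ratio for 10 smooth muscle markers was 1.34, 0.549 and 0.898, and 0.823 in the antibiotic couple without Actg2, whose antibiotic WT value is faulty. Untreated smooth muscle sums ran from 443.2 to 702.0 in KO and from 523.2 to 807.4 in WT. For 10 endothelial markers the ratio was 0.870, 0.590 and 0.465, and 1.06 in the antibiotic couple, with sums of 24.2 to 41.4 in untreated KO and 47.6 to 56.2 in untreated WT. Neuron and glia markers gave 0.482, 0.382 and 0.625, and 0.900 in the antibiotic couple, on low sums (4.86 to 5.19 in untreated KO, 8.30 to 12.7 in untreated WT) with 7 of 10 at 0 in some library.

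No marker was at 0 in the epithelial list, whose ratio was 1.23, 0.878 and 0.971 in couples 1, 2 and 3 and 0.778 in the antibiotic couple, nor in the leukocyte list, whose ratio was 1.51, 0.652, 2.93 and 4.02. Epithelial sums ran from 4449 to 5746 in untreated KO and from 3749 to 5918 in untreated WT, and leukocyte sums from 39.7 to 82.4 in untreated KO and from 28.1 to 60.9 in untreated WT. Fat cell markers gave 0.691, 0.334, 2.59 and 0.512, with Lep at 0 in some library. Mesothelial markers gave 1.14, 0.804, 0.821 and 0.690, with 4 of 5 at 0 in some library. Their sums were nearly all Krt19 (698.6 of 700.7 in the KO mouse of couple 1), so this ratio is that of Krt19 and not of the list. Ileal markers gave 0.773, 0.516, 0.808 and, without the faulty Defa24, 0.352. In couples 2 and 3 the ratio of the collagen sums (0.395 and 0.397) was below those of the fibroblast, smooth muscle and endothelial markers. In couple 2 it was close to that of the neuron and glia markers. It was above that of the fat cell markers in couple 2 (0.334). It was also above that of the propeptide processing and crosslinking genes in couples 2 and 3 (0.392 and 0.351). A few abundant genes lead such sums, as Gsn did with 114.5 of the fibroblast sum of 197.8 in the KO mouse of couple 3. In couples 2 and 3 Pdgfrb was at 3.17 and 1.71 in KO, against 7.44 and 6.47 in WT. Lum was at 6.60 and 10.4 in KO, against 7.57 and 9.37 in WT. Single fibroblast genes varied: Fbln1 was lower with the block (log2 change -1.23, limma adjusted p = 0.0100 with the couple block), while Dcn (-0.29) and Lum (-0.01), both abundant fibroblast proteoglycans, did not pass in either fit. Among endothelial markers Kdr (-0.90, limma adjusted p with the couple block 0.0273), Plvap (-0.96, 0.0472) and Cdh5 (-0.73, 0.0484) were lower with the block, as was the smooth muscle marker Mylk (-0.49, 0.0343). Other members of these lists had higher values in KO and did not pass. They were Egfl7 (0.16) among endothelial markers, and Actg2 (0.24), Tagln (0.07), Cnn1 (0.04) and Des (0.03) among smooth muscle markers. With the block 9.52% of all genes tested passed as lower and 8.07% as higher. The neuronal marker Prph was lower in both fits (log2 change -0.94, limma adjusted p = 0.0256 without the block) and Uchl1 with the block (-0.70, 0.0485). The epithelial marker Vil1 was lower (-0.51, 0.0339) and the T cell marker Cd3e higher (1.06, 0.0169) in KO with the block. The epithelial markers Krt8 (0.22), Elf3 (0.18), Cdx2 (0.17), Krt20 (0.13) and Cldn7 (0.09) were higher in KO and did not pass. The leukocyte markers Itgax (-0.25), Csf1r (-0.17) and Cd68 (-0.03) were lower and did not pass. The part of any of these cell types in the collagen values was not tested.

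**Figure D5:**
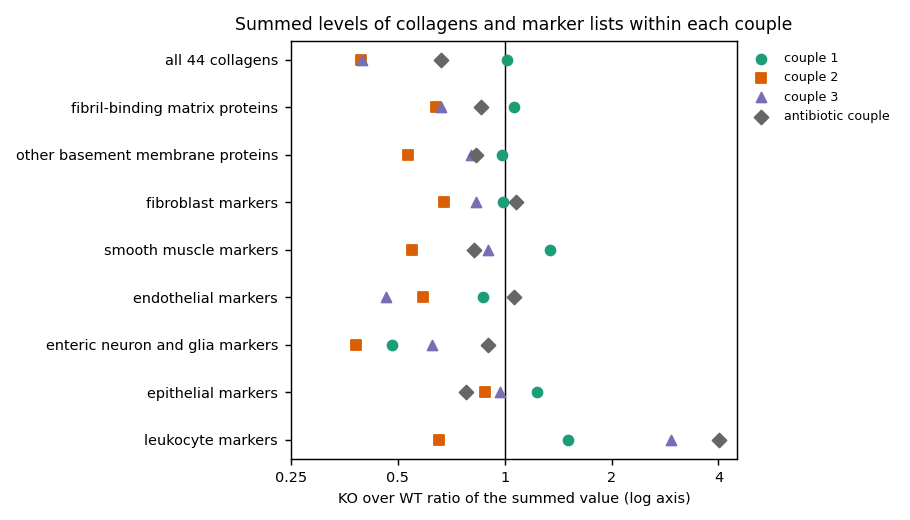
KO over WT ratio of summed values (log axis) in each couple for the 44 collagens, for fibril-binding and other basement membrane proteins, and for marker lists of cell types in the ileal wall. The collagen ratio is 0.395 and 0.397 in couples 2 and 3 and 1.01 in couple 1; smooth muscle markers have 0.549, 0.898 and 1.34 in the same couples.

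The untreated KO minus WT change also varied with exon length, taken as the merged exons of a gene. The protein-coding genes tested were grouped by this length. The median log2 change was 0.11 in the 2171 genes with the shortest length (up to 2399 bases). It was -0.12 in the 2171 with the longest (7403 bases or more). Of the 18 collagens, 9 were in that longest group and the other 9 between 3634 and 7402 bases. The longest group had a median of -0.16 in couple 2 and of -0.13 in couple 3, against collagen medians of -1.02 and -0.94. In couple 1 the medians were 0.01 in the shortest and -0.06 in the longest group. In the antibiotic couple they were -0.06 and -0.03. The part of length in the collagen values was not tested.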

How the data were processed

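Per the series' design text, reads from HiSeq 2000 or Ion Proton libraries were mapped to GRCm38 (release 76) with CLC Genomics Workbench 7.5, and which library ran on which instrument was not used here. The deposited table holds RPKM-like values made by the authors; its header names no unit, and neither the counting rule nor the read depth is stated, so no counting error could be set. Sorted values were identical in the 4 libraries of couples 1 and 2, with couple 3 and the antibiotic couple each on a scale of their own, so levels are compared mainly within couples. Summed values per library ran from 346794 to 397082, and genes above 0 from 11912 to 20896. The WT antibiotic column has faults in 421 genes (values shared between genes, or 0 where the KO littermate has 1 or more), of which 0 are described collagens. All columns carried a sample.

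The 11911 genes that reached 1 in 3 or more libraries entered limma 3.58.1 (R 4.3.3, trend) on log2(value + 1), 3 untreated KO against 3 untreated WT mice, with Benjamini-Hochberg adjustment; the test was checked on simulated data. The labels make a couple a shared litter, and the deviations of littermates from their group means correlated at 0.615, 0.632 and 0.526 in couples 1, 2 and 3, so the fit with the couple as replicate block is given too. Mice are separate animals.

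Described collagens are those above the minimum. Companion genes were named where they passed in either fit, up to 5 a list by size of change, otherwise the 2 with the highest level. Members and lists were chosen with earlier results of these data known. A member of the basement membrane list is not reported here, and the list is counted without it. Single marker genes (such as Dcn, Fbln1, Kdr and Prph) and Lox were named after their values were seen. Gene positions come from GENCODE for GRCm38. Alternatives were the replicate block, the pseudocount, the filter, the normalization, the trend and leaving out each library or couple.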

Additional observations from a re-analysis of the deposited data

Results flagged for a closer look

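Agrn (agrin) was lower in KO ileum in all 3 untreated couples, at 15.7, 17.8 and 18.6 in KO, against 22.9, 25.1 and 22.3 in WT, and slightly higher in KO in the antibiotic couple, at 24.3 in KO and 23.0 in WT (log2 difference 0.0768). The opposite direction in the antibiotic couple drew attention to it. Tested as an interaction, the difference between the effects was 0.49 (SE 0.30, limma adjusted p = 0.999) and did not pass.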

How the results depend on the processing

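With the couple as replicate block, 961 genes were higher and 1134 lower in KO, against 128 and 115 without it, and 3 described collagens were lower, against 0. With no filter on low values 7 genes were higher and 4 lower. Leaving out 1 library at a time gave 38 to 71 higher and 25 to 68 lower genes, and 0 to 2 collagens lower, the 2 (Col6a1 and Col6a4) without the KO mouse of couple 1. With the block and without 1 couple, 104 to 265 genes were higher (215 without couple 2 and 265 without couple 3), 94 to 290 lower (231 and 290), and 0 to 4 collagens lower, the 4 without couple 1. Without the block and without any 1 couple, alternatives added after seeing the data, 0 genes passed in either direction. The interaction called 74 genes, 256 with the replicate block and 4 without the genes with faults in the WT antibiotic column (also added after seeing the data), and 0 collagens under each. These fits with fewer libraries have fewer residual degrees of freedom, and otherwise the cause was not tested. The median log2 change over the described collagens stayed below 0 under all 20 alternatives, from -0.96 to -0.45. Bmp1 passed under 14 of 20 alternatives, and its adjusted p was at most 0.240. No result reversed its direction. Precision is limited by 3 mice a group, an unknown depth and 1 antibiotic couple.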

Other observations

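Timp3, an inhibitor of matrix metalloproteinases that binds to the matrix, was at 4.49, 3.10 and 1.91 in KO ileum of couples 1, 2 and 3, against 6.57, 6.43 and 8.84 in WT ileum, so that the groups did not overlap. Its log2 change was -1.03 (SE 0.25) and missed the threshold (limma adjusted p = 0.0995, with the couple block 0.0591). In the antibiotic couple it had 7.60 in KO and 6.92 in WT. Serpinh1, the chaperone of procollagen in the endoplasmic reticulum, was at 12.9, 11.6 and 12.8 in KO, against 12.9, 17.4 and 19.4 in WT, and at 9.66 in KO and 12.8 in WT in the antibiotic couple. Couple 1 was near level for Serpinh1 and the other couples were lower in KO, and the gene did not pass (log2 change -0.37, SE 0.18, limma adjusted p = 0.377). Both genes were named after their values were seen.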
